A study of Triticum aestivum with 12 samples.

Results

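Crowns of wheat plants that had passed through cold acclimation and then freezing (LTAF) were compared directly with crowns of plants that had met neither (NTG). The comparison takes in 6 of the 12 RNA sequencing libraries of the series, those whose labels put them in the LTAF or NTG group, and asks how far the transcriptome stands from its warm state after both cold steps. LTAF plants were grown at 4 °C for 28 days and then held at -5 °C for 24 h. LTA plants were grown at 4 °C for 28 days without freezing. NTGF plants were grown at 20 °C for 28 days and then held at -5 °C for 24 h. NTG plants were grown at 20 °C for 28 days and not frozen. Each group has 3 libraries labelled as replicates, and all plants were of the cultivar Jing411, a winter wheat. The tissue label reads SEEDING, while the extraction protocol names crowns, and crown is used here. The LTA and NTGF libraries lie outside the comparison and are used here to place its genes between the steps. LTAF and NTG plants also differ in 28 days of growth temperature, so growth and development cannot be told apart from the cold response.

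The crown is the stem base at soil level that holds the shoot meristem, and its survival decides whether a cereal plant regrows after winter. Temperate cereals gain freezing tolerance during weeks at low temperatures above freezing, a process called cold acclimation, in which CBF transcription factors switch on cold-regulated genes such as dehydrins, while soluble sugars accumulate and membranes change their lipids. In winter wheat the same weeks of cold also promote flowering competence through vernalization. No names or functions come with the identifiers in the deposited table. None of these genes could therefore be picked out here, and the tissue label could not be checked against marker genes. An identifier gives the chromosome, its subgenome (A, B or D), a running number in gene order and, where it ends in LC, a low-confidence gene model. The others are high-confidence (HC) models. In whole crowns, fewer cells of a type and less RNA per cell cannot be told apart.

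The LTAF libraries held 18417291 to 19958430 counted reads and the NTG libraries 18113765 to 21491305. One library stood apart before any gene was tested. Across tested genes, LTAF replicate 2 had rank correlations of 0.843 to 0.847 with the NTG libraries, while LTAF replicate 1 had 0.790 to 0.810 and LTAF replicate 3 had 0.764 to 0.788. The LTA libraries had 0.835 to 0.864 with the NTG libraries, so LTAF replicate 2 lay as near to NTG as the unfrozen acclimated crowns did, and LTAF replicates 1 and 3 lay farther away. Genes are not independent replicates, and these values only describe the libraries. The replicate spread was wider in both frozen groups. The median SD per gene was 0.33 log2 CPM in LTAF and 0.37 in NTGF, against 0.23 in LTA and 0.22 in NTG. CPM is a gene's count scaled for the size and composition of its library. Several results that rest on LTAF replicate 2, but not all, are given with and without it.

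After both cold steps 45% of the tested genes had changed. Of 69693 gene models tested, 16404 were higher and 14972 lower in LTAF than in NTG (edgeR's quasi-likelihood test, Benjamini-Hochberg adjusted p under 0.05), or 23.5% and 21.5% of those tested. At least 2-fold differences were fitted for 11100 higher and 10790 lower genes, which is 15.9% and 15.5% of those tested. A test against a 2-fold minimum (edgeR's glmTreat) called 5942 and 4045 genes, and scaling by library totals gave 7095 and 19001 with a fitted 2-fold difference. At least 16-fold differences were fitted for 1321 higher and 847 lower genes, and at least 64-fold differences for 532 and 218. The far tail thus leaned to higher genes, while the medians of the called genes were alike in size, at 1.37 on the log2 scale for higher and -1.44 for lower genes. The 3 LTAF libraries lay wholly above the 3 NTG libraries for 15676 (95.6%) of the higher genes, and wholly below them for 14670 (98.0%) of the lower genes. The same libraries made the calls, so this separation describes the calls and does not test them. The share without overlap over all tested genes is not given here. When each LTAF or NTG library was left out in turn, 11865 higher and 8631 lower genes were called in all 6 fits. Direction is relative to the bulk of genes: with scaling by library totals alone, the median of all tested genes shifted by -0.43 on the log2 scale and 10302 genes were called higher and 27631 lower. Higher genes then made up 27.2% of all calls, and 52.3% with the scaling used here. Without LTAF replicate 2 the balance of calls also turned, with 15941 genes higher and 18876 lower.

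The genes called higher averaged 3.67, 3.34 and 3.74 log2 CPM in LTAF replicates 1, 2 and 3, and 2.02, 1.88 and 1.95 in NTG replicates 1, 2 and 3. The genes called lower averaged 0.61, 0.84 and 0.50 log2 CPM in the LTAF replicates, and 2.25, 2.25 and 2.30 in the NTG replicates. LTAF replicate 2 was the one nearest to NTG in both sets, and the groups were far from overlapping. Gene by gene, LTAF replicate 2 was the lowest of the 3 LTAF libraries for 61.9% of the higher genes and the highest of them for 52.6% of the lower genes. Both sets were chosen by these 6 libraries, so these levels describe the call and do not test it.

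**Figure D1:**
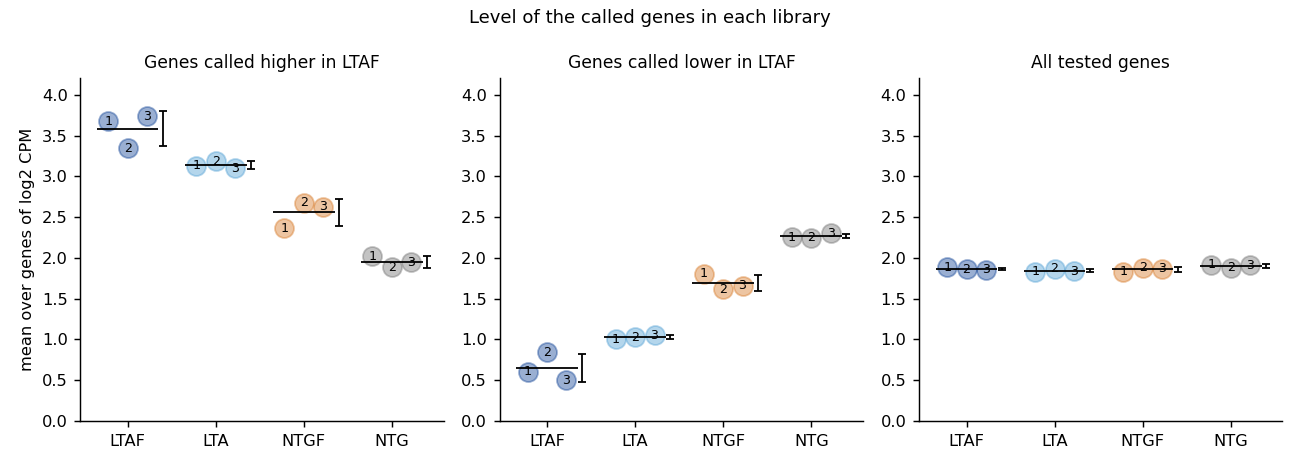
Mean log2 CPM over the genes called higher in LTAF than in NTG, over the genes called lower, and over all tested genes, in each of the 12 libraries. Circles carry the replicate number, lines are group means and bars 1 SD (n = 3). In the called sets LTA lies between LTAF and NTGF, and NTGF between LTA and NTG, while all tested genes stay between 1.83 and 1.92 in every library.

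The LTA and NTGF libraries entered the choice of these genes only through the filter, the scaling and the shared estimate of spread. Their levels fell between the ends in the same order for both sets. Choosing genes for a gap between LTAF and NTG by itself favours a place between them for any other group, so that place is not a test. The higher genes averaged 3.58 ± 0.21 log2 CPM in LTAF, 3.14 ± 0.05 in LTA, 2.56 ± 0.17 in NTGF and 1.95 ± 0.07 in NTG (SD, n = 3 each). The lower genes averaged 0.65 ± 0.17 log2 CPM in LTAF, 1.03 ± 0.02 in LTA, 1.69 ± 0.10 in NTGF and 2.27 ± 0.03 in NTG. On this scale the libraries of neighbouring groups in either order did not overlap. In read share, the higher genes held 57.8% ± 4.87 of all counts in LTAF, 53.7% ± 0.396 in LTA, 36.0% ± 3.13 in NTGF and 27.9% ± 0.936 in NTG. The lower genes held 7.74% ± 1.55 in LTAF, 9.54% ± 0.223 in LTA, 19.8% ± 1.44 in NTGF and 25.1% ± 0.495 in NTG. Here LTAF and LTA did overlap, through LTAF replicate 2. Its higher genes held 52.4%, below the 53.2% to 53.9% of the LTA libraries, while LTAF replicates 1 and 3 had 59.3% and 61.8%. Its lower genes held 9.49%, within the LTA range of 9.29% to 9.71%, while LTAF replicates 1 and 3 had 7.18% and 6.55%.

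The cumulative change is the sum of acclimation (LTA against NTG) and freezing after it (LTAF against LTA), and these comparisons share libraries with each other and with the whole. Side by side, the higher genes had a median log2 fold change of 1.37 in LTAF against NTG, 1.10 in LTA against NTG and 0.18 in LTAF against LTA. The lower genes had medians of -1.44 in LTAF against NTG, -1.04 in LTA against NTG and -0.31 in LTAF against LTA. On the other route, through freezing of plants that were not acclimated, the higher genes had a median of 0.51 in NTGF against NTG and 0.80 in LTAF against NTGF. The lower genes had medians of -0.34 in NTGF against NTG and -1.04 in LTAF against NTGF. Over all tested genes the 5 medians lay between -0.06 and 0.04. In both directions, the acclimation step carried the larger median. With scaling by library totals the medians over higher and lower genes were 0.76 and -1.38 in LTA against NTG, 0.08 and -0.39 in LTAF against LTA, and 0.19 and -0.65 in NTGF against NTG. Without LTAF replicate 2 the median of LTAF against LTA over the lower genes was -0.48.

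**Figure D2:**
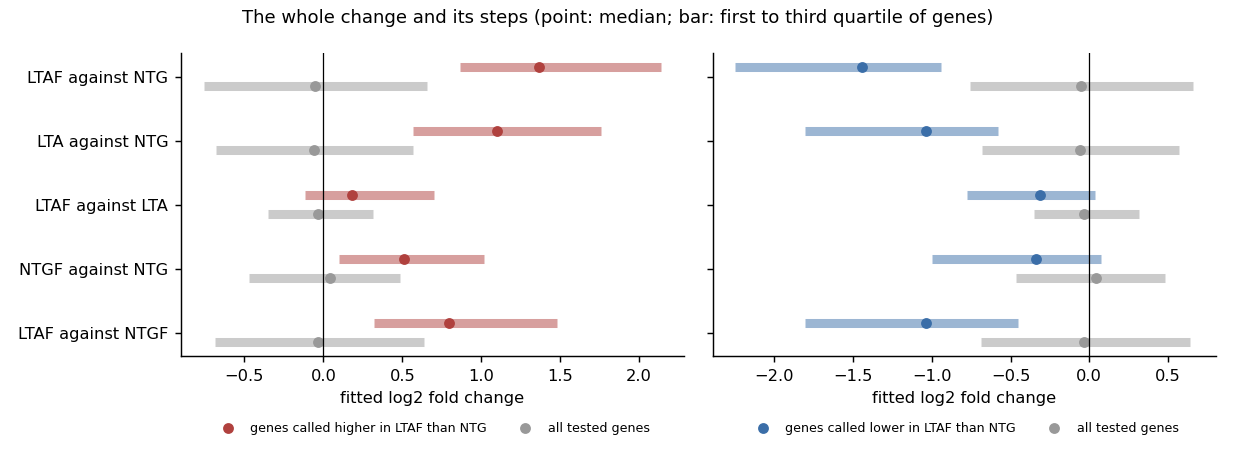
Fitted log2 fold changes of the genes called higher (left) or lower (right) in LTAF than in NTG, in that comparison and in 4 comparisons that share libraries with it. Points are medians and bars run from the first to the third quartile of genes, with all tested genes in grey. The medians of LTA against NTG, 1.10 and -1.04, lie nearer to the whole change than those of NTGF against NTG, 0.51 and -0.34.

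LTA against NTGF, prolonged chilling against acute freezing, shares no library with LTAF against NTG, although all 12 libraries share 1 estimate of spread. Of all tested genes, 20.3% were called higher and 19.8% lower in LTA than in NTGF. Of the 16404 genes higher in LTAF, 7899 (48.2%) were higher in LTA than in NTGF and 1730 (10.55%) were lower. These are 55.9% of all genes higher in LTA than in NTGF and 12.5% of all genes lower there. Of the 14972 genes lower in LTAF, 6192 (41.4%) were lower and 972 (6.49%) higher in LTA than in NTGF, which are 44.9% and 6.88% of those lists. The median log2 fold change of LTA against NTGF was 0.63 over the genes higher in LTAF, -0.75 over those lower, and -0.04 over all tested genes.

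The largest fitted fold change by the naming rule was that of TraesCS5B01G312300, an HC model on chromosome 5B. This rank depended on single NTG reads. Another named 5B gene had 1 NTG read, in replicate 1. Without that library its log2 fold change was 12.94, against 12.29 for TraesCS5B01G312300. TraesCS5B01G312300 had 31.7, 26.3 and 39.2 CPM in LTAF replicates 1, 2 and 3, and no count in any NTG library. LTA had 0.220, 0.0999 and 0.157 CPM, and NTGF had 60.1, 85.6 and 62.8 CPM. LTAF was at least 788-fold higher than NTG with a floor of 3 counts over the NTG group (edgeR adjusted p = 2.89e-07), and the bound was 507.8 to 863.7 with 1 library left out, lowest without NTG replicate 1 (508.3) or NTG replicate 2 (507.8), where the same floor stands over fewer NTG reads. The gene was near its floor after acclimation alone and high in both frozen groups, which did not overlap: NTGF lay above LTAF (log2 fold change of LTAF against NTGF -1.10, edgeR adjusted p = 0.00255). TraesCS2B01G482200, an HC model on chromosome 2B, showed another course. It had 23.0, 7.41 and 36.2 CPM in the LTAF replicates and no count in NTG, at least 533.6-fold higher (edgeR adjusted p = 0.00136). LTA had 0.824, 16.4 and 4.41 CPM, and NTGF had 0, 0.106 and 0.225 CPM. Its levels in LTAF and LTA overlapped and spread widely, and all were above those of NTGF. The bound was 343.9 to 717.4 with 1 library left out, lowest without NTG replicate 1 (344.2) or NTG replicate 2 (343.9).

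Among genes that fell, TraesCSU01G361500LC, a low-confidence model on no placed chromosome, had 0.0570, 0 and 0 CPM in LTAF replicates 1, 2 and 3, and 8.21, 11.6 and 13.9 CPM in NTG replicates 1, 2 and 3. LTA had 0.0550, 0 and 0.210 CPM, and NTGF had 17.1, 16.9 and 16.6 CPM. NTG exceeded LTAF by a ratio of 566.0 (95% exact counting interval 101.3 to 22385; edgeR adjusted p = 2.73e-06). That ratio rests on 1 count in LTAF replicate 1, and without that library it became a bound of 124.0. It was 372.0 without LTAF replicate 2, and no other library moved it by over 1.5 times. TraesCS1A01G041400, an HC model on 1A, had 0.171, 0.0570 and 0.0622 CPM in LTAF and 28.8, 46.8 and 49.8 CPM in NTG. LTA had 0, 0.25 and 0.157 CPM, and NTGF had 28.1, 30.1 and 31.9 CPM. Its log2 fold change was -8.65 ± 0.49 (SE; edgeR adjusted p = 8.37e-07), and the ratio of NTG to LTAF was 422.3 (95% exact counting interval 180.8 to 1302), or 693.8 without LTAF replicate 1. Both falling genes were near 0 in all 6 acclimated libraries and at 8.21 CPM or more in all 6 others, whether frozen or not. Intervals and floors cover counting error only.

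**Figure D3:**
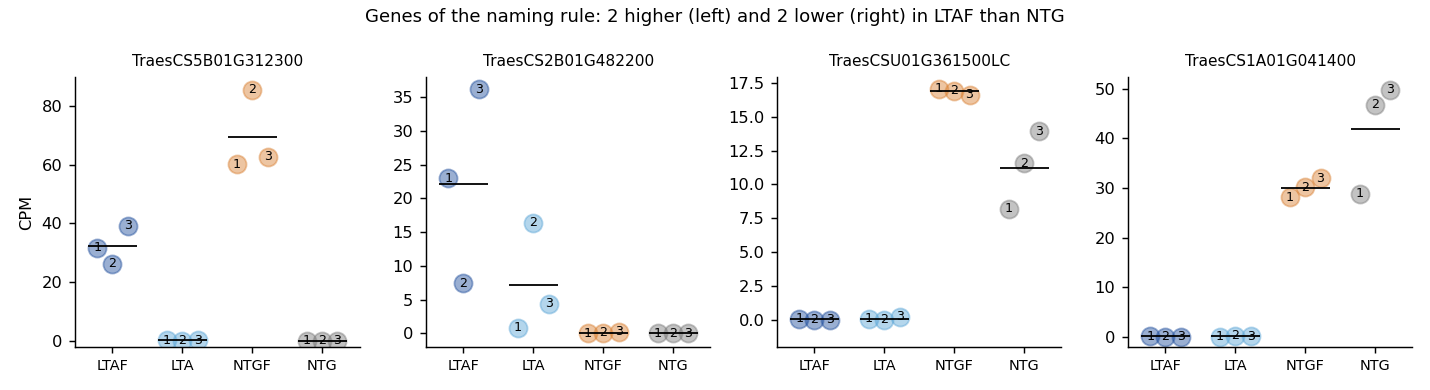
CPM of 4 genes in each of the 12 libraries, with the replicate number in each circle and group means as lines. From left to right, the genes are the first 2 higher and the first 2 lower in LTAF than in NTG by the naming rule. TraesCS5B01G312300 is high in both frozen groups, TraesCS2B01G482200 in LTAF and in part of LTA, and the 2 lower genes only in the unacclimated groups.

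The rule named 6 other genes in each direction. All 6 higher genes lie on chromosomes 5A, 5B or 5D, which carry 15.5% of all models, and 3 of them had no count in NTG. The 5B genes among them are neighbours by running number and shared a course with the HC model on 5A. These averaged 0.0166 to 0.519 CPM in LTA and 39.5 to 49.96 CPM in NTGF. Reads may be divided among similar copies, the 6 need not be independent, and their place on these chromosomes was not tested. The 6 higher genes averaged 11.4 to 50.9 CPM in LTAF and at most 0.0157 CPM in NTG (edgeR adjusted p from 2.96e-06 to 0.00647). Their group means ran from 0.0166 to 9.30 CPM in LTA, at or above 1 CPM for 3 genes, and from 0.0928 to 49.96 CPM in NTGF, at or above 1 CPM for 4 genes. The other 6 lower genes averaged 0.0380 to 0.136 CPM in LTAF and 10.1 to 35.3 CPM in NTG (edgeR adjusted p from 1.02e-08 to 0.000715). In LTA 5 of them stayed under 1 CPM, and in NTGF 5 stayed at or above 1 CPM. Over all 8 lower genes, the median of the group means was 0.0777 CPM in LTAF, 0.174 in LTA, 21.7 in NTGF and 18.1 in NTG. The call of 1 higher and 1 lower gene of these 12 ended with limma-voom, at adjusted p = 0.133 (range over all alternatives 4.01e-08 to 0.133) and adjusted p = 0.0744 (2.07e-08 to 0.0744).

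A stricter view of gain and loss counts genes without a single read at one end. Of all 128497 models, 52 (0.0405%) had no count in NTG and at least 1 CPM in each LTAF library, and 15 (0.0117%) had no count in LTAF and at least 1 CPM in each NTG library. The gained genes averaged 1.11 to 32.4 CPM in LTAF, with a median of 3.78 CPM, and 5 of them reached 10 CPM. Of these 52, 38 were HC and 14 low-confidence models, and 14 (26.9%) lay on 5A, 5B or 5D, which carry 15.5% of all models. Neighbouring genes and similar copies need not be independent, and this share was not tested. Among all tested models, 23.2% on 5A, 21.4% on 5B and 24.6% on 5D were called higher, against 23.5% in all. In LTA, 37 of the 52 had a count in every library and 12 had at least 1 CPM in each, with a median level of 0.277 CPM. In NTGF, 23 had a count in every library and 6 had at least 1 CPM in each, with a median of 0.334 CPM. The 15 lost genes were all HC models and weaker, averaging 1.22 to 5.73 CPM in NTG, and 2 of them (13.3%) lay on 5A, 5B or 5D. None of the 15 reached 1 CPM in every LTA library (median 0.0508 CPM), and 1 did in every NTGF library (median 0.514 CPM). Leaving out a library removes a condition from each rule, so growth of both numbers was built in and does not test them. Without LTAF replicate 2 they were 106 and 66, and without NTG replicate 2 they were 83 and 41. Without NTG replicate 1 they were 88 and 26, and without LTAF replicate 1 or 3 the lost genes numbered 33 or 25.

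Counts were concentrated on fewer genes in LTAF. The genes that together held 50% of a library's counts numbered 2592, 2821 and 2288 in LTAF replicates 1, 2 and 3, and 4103, 3904 and 3682 in the NTG replicates, without overlap (difference of means -1329, exact two-sided permutation p = 0.1, the smallest that 3 against 3 libraries allow). LTA had 2406 to 2553 such genes and NTGF 2791 to 3272. Of the 100 most counted genes in LTAF, 51 were also among the 100 most counted in NTG. The 100 most counted of LTAF held 11.4% ± 1.66 of counts in LTAF, 11.1% ± 0.428 in LTA, 5.20% ± 0.714 in NTGF and 5.92% ± 0.227 in NTG (SD, n = 3 each), and 87 of them were called higher and 5 lower. These genes were picked for high counts in LTAF, which by itself favours a larger LTAF share and higher calls. The 100 most counted of NTG held 8.57% ± 1.05 in LTAF and 8.48% ± 0.260 in NTG, a difference within the replicate spread, with 39 of them called higher and 32 lower. Among all tested genes 23.5% were called higher and 21.5% lower, and among those over 100 CPM 52.1% and 11.9%. The largest rise among the 100 most counted genes of LTAF was that of an HC model on 6D, singled out after its values were seen. It had 16909, 11212 and 15565 reads in LTAF replicates 1, 2 and 3, and 23, 20 and 26 reads in the NTG replicates. In CPM it averaged 857 ± 189 in LTAF, 438 ± 109 in LTA, 10.46 ± 8.47 in NTGF and 0.958 ± 0.238 in NTG (SD, n = 3 each), and its log2 fold change of LTAF against NTG was 9.81 ± 0.71 (SE; edgeR adjusted p = 6.29e-06). Counts here are not set against gene length.

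The direction of change went with the level of the gene. Among genes with a mean under 1 CPM over the 12 libraries, 11.2% were called higher and 24.3% lower in LTAF. From 1 to 10 CPM these shares were 19.6% and 23.4%, from 10 to 100 CPM they were 39.3% and 16.2%, and over 100 CPM they were 52.1% and 11.9%. The median log2 fold change was -0.49 under 1 CPM and 0.63 over 100 CPM. A mean that includes LTAF places a gene that rose in a higher class, and its part in this trend was not tested. With scaling by library totals the shares called higher kept their order, at 8.29%, 11.54%, 24.5% and 40.8%, while those called lower were 38.6%, 42.8%, 35.6% and 24.2%, largest from 1 to 10 CPM. Lower calls then exceeded higher ones in all classes under 100 CPM. Of the low-confidence models 15.8% were called higher and 21.0% lower, and of the HC models 25.2% and 21.6%. Within level classes the gap in higher calls was smaller or turned. The gap in lower calls was wider under 1 CPM, and wider and turned from 10 to 100 CPM. Under 1 CPM 11.50% of low-confidence and 11.08% of HC models were called higher, and 18.9% and 27.5% lower. From 1 to 10 CPM 17.4% and 20.1% were called higher, and both had 23.3% to 23.4% lower. From 10 to 100 CPM 36.9% and 39.4% were called higher, and 19.2% and 16.1% lower.

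**Figure D4:**
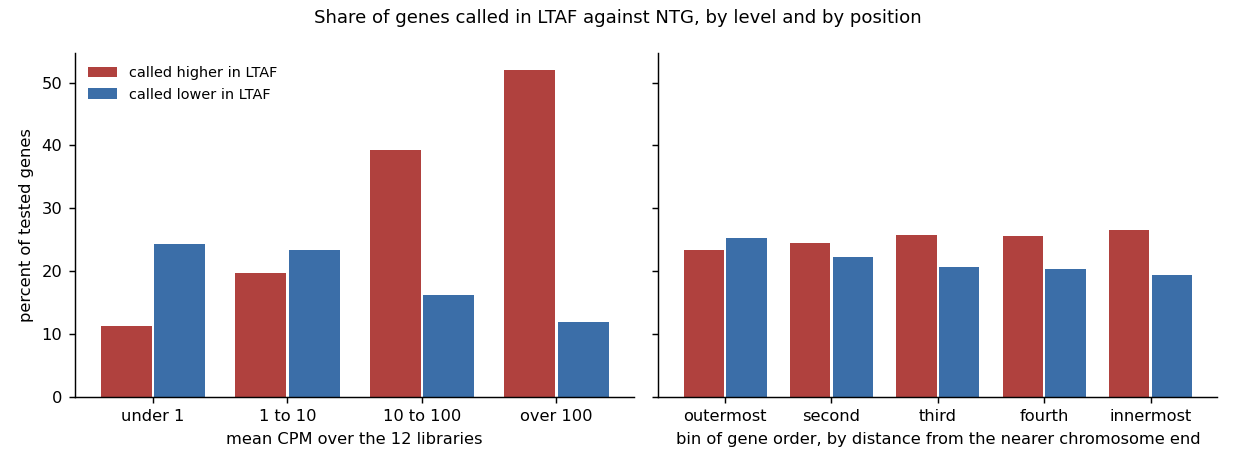
Percent of tested genes called higher or lower in LTAF than in NTG (bars from 0), by mean CPM over the 12 libraries (left, all tested models) and by distance from the nearer chromosome end in gene order (right, HC models on placed chromosomes). Higher calls grow from 11.2% to 52.1% with level, and lower calls shrink from 25.2% in the outermost to 19.4% in the innermost bin.

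Chromosomes and subgenomes differed little. The share called higher ran from 21.4% on 5B to 25.4% on 3B among placed chromosomes, and the share called lower from 19.7% on 6A to 23.0% on 5D. The subgenomes A, B and D had 23.8%, 22.7% and 24.1% called higher and 20.9%, 21.9% and 21.6% called lower. The share called lower also went with position along the chromosome. With the tested HC models of each chromosome divided in gene order into 5 equal bins by distance from the nearer end, 25.2% were called lower in the outermost bin, then 22.2%, 20.7%, 20.4% and 19.4% in the innermost. The share called higher was 23.3% in the outermost and 26.5% in the innermost bin. The outermost bin had a larger share of lower calls than the innermost on 20 of 21 chromosomes, and in each of the A, B and D subgenomes (24.5% against 18.8%, 25.4% against 19.9% and 25.7% against 19.5%). It held within level classes too, with 30.1% in the outermost against 24.8% in the innermost bin under 1 CPM, 27.4% against 20.9% from 1 to 10 CPM, 18.9% against 15.1% from 10 to 100 CPM, and 14.3% against 11.1% over 100 CPM. With scaling by library totals the shares of lower calls were 43.6% and 37.6%, but those of higher calls came nearer each other, at 15.2% and 16.1%. Over 100 CPM the difference in higher calls was turned, with 56.2% in the outermost and 54.3% in the innermost bin. Genes of one region share ancestry and can share reads with copies elsewhere, so these shares are descriptions.

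Some of the change was gathered in neighbouring genes. Windows of 15 consecutive tested HC models were ranked by their mean log2 fold change in LTAF against NTG, with each gene limited to 3 in either direction, and the first 6 in each direction are described. The values chose the windows, so they carry no test, and their counts of called genes stand against 23.5% higher and 21.5% lower among all tested genes. Near-identical copies on the A, B and D chromosomes can share reads, so windows on them need not be independent.

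Of the windows with the lowest means, the first 3 lay on 5D, 5A and 5B. The 5D window (models 350100 to 353000) had 14 of its 15 genes called lower, and its mean was -1.99 ± 0.22 log2 CPM in LTAF, -0.16 ± 0.31 in LTA, -1.32 ± 0.49 in NTGF and 1.18 ± 0.28 in NTG (SD, n = 3 each). The 5A window (344600 to 346800) also had 14 genes called lower, with -2.09 ± 0.27 log2 CPM in LTAF, -0.37 ± 0.13 in LTA, -1.60 ± 0.37 in NTGF and 0.82 ± 0.18 in NTG. The 5B window (344400 to 347300) had 14 as well, with -2.08 ± 0.27 in LTAF, -0.44 ± 0.20 in LTA, -1.34 ± 0.46 in NTGF and 0.97 ± 0.35 in NTG. In all 3 windows both LTA and NTGF lay below NTG, and LTAF lay lowest by its mean. The mean fitted log2 fold changes were -4.14, -3.98 and -4.40 in LTAF against NTG, -1.55, -1.32 and -1.60 in LTA against NTG, and -3.02, -3.16 and -2.98 in NTGF against NTG, in the order 5D, 5A, 5B. By these fitted values the separate changes add to more than the combined change in each window. The log2 CPM levels carry a prior count of 2 that the fitted changes do not, so the 2 scales give different sizes. The LTAF levels of -1.99 to -2.09 log2 CPM rest on few reads, which limits how large a fall can be measured. The difference was not tested.

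The other low windows lay on 6B (81600 to 84600 and 48300 to 51100) and 6A (33800 to 35900), and there the LTAF replicates parted. The first 6B window had 11 genes called lower and 1 higher, and lay at 0.70, 2.49 and -0.95 log2 CPM in LTAF replicates 1, 2 and 3, and at 3.42, 3.94 and 4.06 in the NTG replicates. LTA had 2.33 to 2.77 and NTGF 2.38 to 4.37 log2 CPM. The second 6B window had 7 genes called lower and lay at 1.24 log2 CPM in LTAF replicate 1, near the level of the LTA libraries in replicate 2 and about 0 in replicate 3, and the 6A window had 6 and lay at 1.15, 2.55 and -0.08. LTAF replicate 2 was within or just beyond the range of LTA in all 3, while LTAF replicates 1 and 3 lay below every other library. Without LTAF replicate 2 the mean log2 fold changes were -3.91, -3.89 and -3.18, against -2.29, -2.23 and -1.93 with it.

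The windows with the highest means differed in their course. The 6B window (400000 to 402500) had 12 genes called higher and lay at 2.45 ± 0.19 log2 CPM in LTAF, 0.71 ± 0.08 in LTA, -0.03 ± 0.98 in NTGF and -0.21 ± 0.18 in NTG. The 6D window (332000 to 333600) had 10 called higher and 1 lower, at 3.63 ± 0.18 in LTAF, 2.26 ± 0.16 in LTA, 2.70 ± 0.49 in NTGF and 0.22 ± 0.13 in NTG. In both, LTAF lay above the libraries of each other group. On 2B (481000 to 483100), 11 genes were called higher and 1 lower, with 3.35 ± 0.55 log2 CPM in LTAF, 2.57 ± 0.50 in LTA, -0.03 ± 0.28 in NTGF and -0.49 ± 0.10 in NTG, so that the acclimated groups overlapped and stood far above the others. This window holds TraesCS2B01G482200. The second 2B window (475100 to 476700) had 11 called higher, at 2.81 ± 0.15 in LTAF, 1.52 ± 0.26 in LTA, 1.16 ± 0.73 in NTGF and 0.29 ± 0.21 in NTG. The 5D window (226900 to 228400) had 11 called higher, at 3.02 ± 0.71 in LTAF, 2.62 ± 0.84 in LTA, 1.53 ± 0.62 in NTGF and -0.32 ± 0.17 in NTG. The 3B window (61700 to 64500) had 9 called higher, and there LTAF replicate 2, at 3.59 log2 CPM, lay far below LTAF replicates 1 and 3, at 5.47 and 5.62, and near the highest NTG library, at 3.19. Its mean log2 fold change was 2.09, or 2.29 without LTAF replicate 2 and 3.10 without NTG replicate 2. In all, 14 higher and 14 lower windows without overlap had a mean of at least 1.5 in either direction. Of these, 7 and 3 lay on 5A, 5B or 5D, which carry 15.5% of all models.

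**Figure D5:**
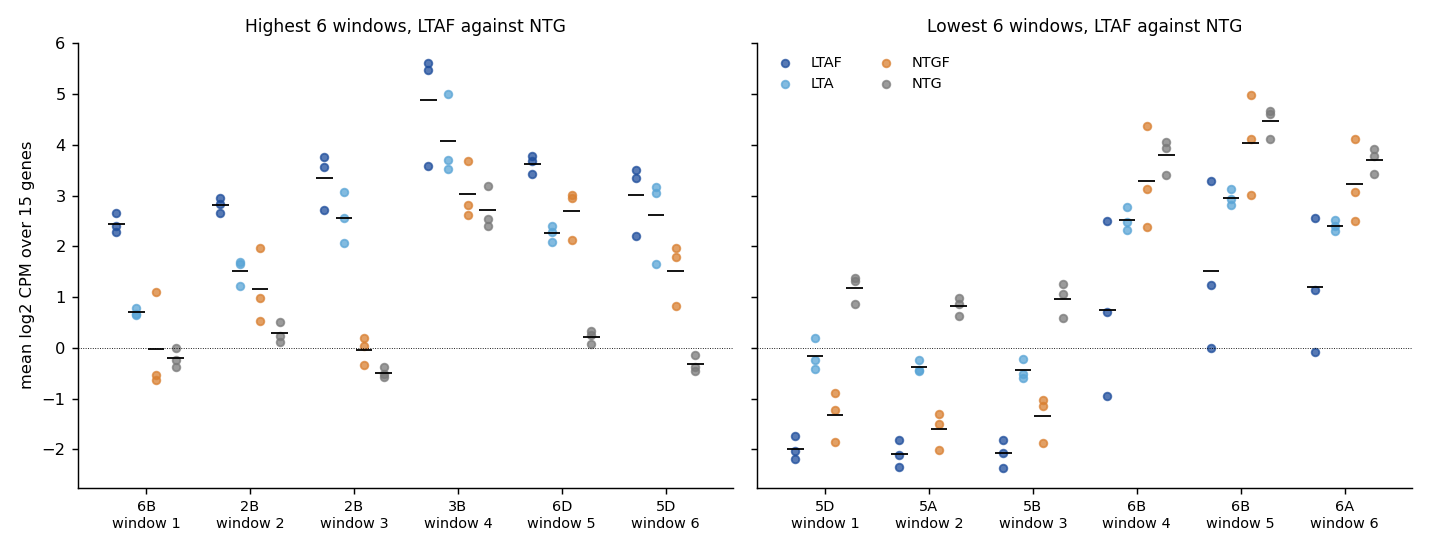
Mean log2 CPM over the 15 genes of each of the 6 windows with the highest (left) and the lowest (right) mean log2 fold change of LTAF against NTG (each gene limited to 3), numbered by rank under their chromosome. Points are libraries, coloured by group in the order LTAF, LTA, NTGF and NTG, and lines are group means. The 3 lowest windows lie at -1.99 to -2.09 in LTAF, and LTAF points are spread widely in lower windows 4 to 6.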

How the data were processed

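The authors deposited raw read counts per gene model, 1 column per library, per the file headers. They are whole numbers with no normalization. The aligner, counter, genome build, strand setting and handling of reads shared by gene copies are not analysed here, as no label or header names them. Libraries held 17871036 to 21491305 counts, and no 2 were identical. The filterByExpr step (minimum count 10) kept 57596 of 82323 high-confidence and 12097 of 46174 low-confidence models, and TMM set the scaling. All 12 libraries entered a single fit in edgeR 4.0.16 (R 4.3.3; robust quasi-likelihood, a mean per group), with Benjamini-Hochberg adjustment over all tested genes and calls under 0.05. DESeq2 1.42.0 and limma-voom (limma 3.58.1) were alternatives. Log2 CPM uses a prior count of 2, and SEs come from the F statistic. The steps were tested on simulated data. Genes were named by taking, in each direction, the 8 called models that changed most by the fitted fold, among those whose LTAF and NTG libraries did not overlap and whose higher group averaged 10 CPM or more. The reference table matched 0 identifiers, so the first 2 per direction are printed and no gene list or marker check could be run. The comparison, rules and windows were chosen with earlier results of these data known. The labels do not say whether replicates came from separate plants, so p-values measure the spread between libraries, which may be technical.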

Additional observations from a re-analysis of the deposited data

Results flagged for a closer look

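For 2 of the 16 named genes freezing was followed by different changes in the acclimated and the unacclimated crowns. The 16 were picked for large changes between LTAF and NTG, and both groups enter this comparison. The share of all tested genes that pass it is not given here, so 2 of 16 is a description only. For TraesCS5B01G312300 the difference, LTAF against LTA minus NTGF against NTG, was -5.80 on the log2 scale (edgeR interaction, adjusted p = 0.00707). All 3 LTAF libraries lay above all 3 LTA libraries, and all 3 NTGF libraries above all 3 NTG libraries. With no count in NTG the size of this term depends on the prior count, and the LTA level of 0.159 ± 0.0600 CPM (SD, n = 3) comes from 9 reads. Over 11 alternatives it ran from -5.98 to -5.68, with adjusted p from 0.000719 to 0.0266. The other gene, a low-confidence model on 5A that had no count in NTG, had a term of -6.47 (edgeR interaction, adjusted p = 0.0375). It averaged 11.4 ± 3.45 CPM in LTAF, 9.30 ± 3.84 in LTA and 0.685 ± 0.543 in NTGF (SD, n = 3 each). Its term ran from -6.78 to -6.32 over 10 alternatives, with adjusted p from 0.0337 to 0.110, and passed with DESeq2 size factors, with library totals and without LTAF replicate 2 but in none of the other refits. The terms of the other 3 genes given by identifier did not pass the threshold: -2.55 for TraesCS2B01G482200 (adjusted p = 0.701), -2.45 for TraesCSU01G361500LC (adjusted p = 0.219) and -0.01 for TraesCS1A01G041400 (adjusted p = 0.987).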

How the results depend on the processing

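Counts of calls stayed within 1.5 times under DESeq2, limma-voom, DESeq2 size factors, no filter, only the LTAF and NTG libraries, high-confidence models only and each library left out. Leaving out 1 library gave 13348 to 15941 higher and 10584 to 18876 lower genes, and 9904 to 11451 and 8484 to 14021 at least 2-fold. A tested 2-fold minimum gave 5942 and 4045, and library totals gave 10302 and 27631, or 7095 and 19001 at least 2-fold. The replicate number as a block gave 14928 higher and 12900 lower genes. Same-numbered LTAF and NTG libraries had correlations of 0.18, 0.20 and -0.12 in their deviations from group means, so the numbers were not taken as pairs. Over 238 refits of the 16 named genes 236 kept the call and 2 lost it. Library totals, added with the other refits of the steps after the data were seen, put the median of LTA against NTG at 0.76 and -1.38 over higher and lower genes, that of LTAF against LTA at 0.08 and -0.39, and that of NTGF against NTG at 0.19 and -0.65. High-confidence models gave 1.07 and -1.09 for LTA against NTG. With 1 library left out, medians over higher and lower genes ran from 1.06 to 1.13 and from -1.08 to -1.02 for LTA against NTG, and from 0.13 to 0.24 and from -0.48 to -0.23 for LTAF against LTA. They ran from 0.45 to 0.53 and -0.40 to -0.32 for NTGF against NTG. Genes without a count at one end numbered 105 gained and 86 lost at 0.5 CPM, 30 and 3 at 2 CPM, and 56 to 106 and 20 to 66 with 1 library left out. The share of the 100 most counted NTG genes differed by 0.0950 percentage points, and that of 500 genes by -1.09. The gap in lower calls between outermost and innermost bin was 4.13 points at 10 CPM or more, and that in higher calls -0.93 with library totals, against -3.16. The causes were not tested. Windows of 10 or 25 genes met 4 of the 6 higher and all 6 lower windows described.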
